A study of Mus musculus with 2 samples.

Results

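The promoters described here carry H3K4me3 without H3K27me3 and belong to genes whose wild-type mRNA level is low to intermediate. CpG number did not enter their choice, and the 456 with a sequence window held 0 to 63 CpG in 300 bases, with a median of 23. They were taken from the study's gene annotation, of which 1999 genes were supplied, by 3 criteria: the class H3K4me3 only, the expression group just above the lowest-expressed one, and a symbol that does not mark a zinc finger gene. The 1999 genes comprise 1363 with H3K4me3 only and 636 with H3K27me3 only. In what follows, "all genes" means these 1999 and not the genome. A total of 562 of the 1999 genes met the 3 criteria, after 25 zinc finger symbols had been left out of 587. Their expression values run from 41.1, at D18Ertd653e, to 97, at Fancb, where the supplied genes end, while Ogdh and Slc26a2 lie just outside at 41. Within 1 kb of the transcription start site (TSS), D18Ertd653e held 13 wild-type and 13 null tags, Fancb 3 and 7, Ogdh 17 and 20, and Slc26a2 3 and 9. The data are 2 ChIP-Seq libraries of ubiquitylated histone H2A (uH2A) from mouse embryonic fibroblast (MEF) lines labelled Bmi1 WT (wild-type) and Bmi1 KO (null), with 1 library for each. Both lines came from C57BL/6 littermates, had been immortalised with TBX2 and received no further treatment, and in both the chromatin was cross-linked with formaldehyde, sonicated, digested with MNase and precipitated with antibody E6C5. As each genotype is represented by 1 line and 1 library, the genotype and the line cannot be told apart, and no difference below has a replicate check. The Bmi1 locus itself was not analysed here.

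Mono-ubiquitin is placed on histone H2A by Polycomb repressive complex 1 (PRC1), in which Ring1B is the ligase and Bmi1 a partner that raises its activity. PRC1 is best known from silent developmental genes that carry H3K27me3, but variant forms of the complex also reach unmethylated CpG islands through a subunit that binds CpG. Promoters with H3K4me3 alone are mostly CpG islands of genes used in many cell types, so uH2A there is measured on chromatin that is open to transcription.

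Promoter sequences of 8 of these genes are given first, because the tag counts at them are described below and because the ratio of the libraries was ordered by CpG number with all tags. Anks3, Trp53inp2, Shprh, Fancm and B2m held a listed uH2A peak, and, ranked with 1 tag per position and strand, Rasl11a was among the 5 promoters with the largest excess of wild-type tags and Sf1 and Dnase2a among the 5 with the largest excess of null tags. The sequences are RefSeq windows of GRCm38.p6, 250 bases before to 50 bases after the start and read 5′ to 3′ on the gene strand, and capitals mark each CpG. They lie at chr16:4964188-4964487 on the minus strand for Anks3, and on the plus strand at chr2:155381606-155381905 for Trp53inp2, chr10:11149180-11149479 for Shprh, chr12:65075353-65075652 for Fancm, chr2:122147437-122147736 for B2m, chr5:146844821-146845120 for Rasl11a, chr19:6363440-6363739 for Sf1 and chr8:84908505-84908804 for Dnase2a. Tags were mapped to mm8, another build, so these windows give the base composition of the promoter and not the place of a tag, and whether their start is the one used for counting could not be checked. CpG numbers in the 300 bases were 30 at Trp53inp2, 29 at Anks3, 26 at Fancm, 25 at Shprh, 24 at Sf1, 22 at Dnase2a, 19 at Rasl11a and 14 at B2m.
Anks3: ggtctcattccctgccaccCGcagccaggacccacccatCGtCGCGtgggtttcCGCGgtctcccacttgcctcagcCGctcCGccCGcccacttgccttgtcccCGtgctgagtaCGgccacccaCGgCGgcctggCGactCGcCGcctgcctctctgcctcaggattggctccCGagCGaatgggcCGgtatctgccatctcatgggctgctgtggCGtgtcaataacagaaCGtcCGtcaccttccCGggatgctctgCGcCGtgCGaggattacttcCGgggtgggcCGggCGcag
Trp53inp2: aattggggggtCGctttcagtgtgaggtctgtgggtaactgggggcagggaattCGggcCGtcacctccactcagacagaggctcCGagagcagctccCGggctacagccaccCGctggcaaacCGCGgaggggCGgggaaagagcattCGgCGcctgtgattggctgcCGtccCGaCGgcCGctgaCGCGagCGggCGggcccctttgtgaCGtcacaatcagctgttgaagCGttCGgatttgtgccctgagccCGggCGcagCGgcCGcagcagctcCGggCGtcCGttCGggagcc
Shprh: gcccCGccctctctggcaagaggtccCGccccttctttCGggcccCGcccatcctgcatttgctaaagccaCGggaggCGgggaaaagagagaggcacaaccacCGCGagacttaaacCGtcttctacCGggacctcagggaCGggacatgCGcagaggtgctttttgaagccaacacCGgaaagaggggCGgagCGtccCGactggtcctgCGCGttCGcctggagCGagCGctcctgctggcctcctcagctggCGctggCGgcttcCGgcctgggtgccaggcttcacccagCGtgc
Fancm: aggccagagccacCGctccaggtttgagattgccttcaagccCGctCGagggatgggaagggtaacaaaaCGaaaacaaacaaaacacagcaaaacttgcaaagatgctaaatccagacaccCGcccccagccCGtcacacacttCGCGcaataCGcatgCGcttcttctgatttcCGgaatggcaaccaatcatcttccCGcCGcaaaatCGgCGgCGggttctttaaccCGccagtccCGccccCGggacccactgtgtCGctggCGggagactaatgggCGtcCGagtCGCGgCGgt
B2m: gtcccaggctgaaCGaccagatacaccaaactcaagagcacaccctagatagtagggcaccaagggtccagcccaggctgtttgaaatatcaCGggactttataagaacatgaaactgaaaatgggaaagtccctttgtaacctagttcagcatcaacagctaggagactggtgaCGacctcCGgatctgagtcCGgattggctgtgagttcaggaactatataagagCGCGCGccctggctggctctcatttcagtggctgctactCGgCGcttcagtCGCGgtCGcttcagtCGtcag
Rasl11a: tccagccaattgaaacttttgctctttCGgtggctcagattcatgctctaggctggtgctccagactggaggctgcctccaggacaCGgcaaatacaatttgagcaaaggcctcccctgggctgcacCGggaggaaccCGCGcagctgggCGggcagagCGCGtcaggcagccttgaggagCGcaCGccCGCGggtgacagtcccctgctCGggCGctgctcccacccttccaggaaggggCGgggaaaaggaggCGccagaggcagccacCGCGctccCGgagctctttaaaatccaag
Sf1: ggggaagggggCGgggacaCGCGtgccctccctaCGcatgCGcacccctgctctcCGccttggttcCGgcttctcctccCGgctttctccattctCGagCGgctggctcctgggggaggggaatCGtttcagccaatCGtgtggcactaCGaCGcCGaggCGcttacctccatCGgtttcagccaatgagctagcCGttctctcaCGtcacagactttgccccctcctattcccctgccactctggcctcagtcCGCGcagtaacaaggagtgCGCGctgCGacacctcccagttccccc
Dnase2a: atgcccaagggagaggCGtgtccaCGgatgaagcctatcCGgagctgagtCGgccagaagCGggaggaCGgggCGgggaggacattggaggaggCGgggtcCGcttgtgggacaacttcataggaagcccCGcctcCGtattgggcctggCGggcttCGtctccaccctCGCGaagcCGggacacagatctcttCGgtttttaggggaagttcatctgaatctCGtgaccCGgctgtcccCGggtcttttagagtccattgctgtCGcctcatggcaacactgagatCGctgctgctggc

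To see where uH2A tags lay around these TSSs in each library, they were counted in bins of 200 bp along the gene strand. Wild-type counts were multiplied by 1.31 because the null library held 8020248 tags and the wild-type library 6114925. Both libraries were highest just inside the gene. In the first bin of the gene, which starts at the TSS, the members averaged 2.60 scaled wild-type tags and 1.81 null tags per gene, against 0.850 and 0.783 per bin at distances beyond 3 kb. Each library thus rose over its own outer level, by 3.06-fold in the wild-type library and by 2.32-fold in the null library. No input library was used here, so these are rises of tags. How much of either rise is uH2A was not tested. In the next bin, from +0.2 to +0.4 kb, the levels were 2.39 and 1.56 tags. On the upstream side the values were lower, with 1.27 scaled wild-type and 1.06 null tags per bin from -1 kb to the TSS, against 1.78 and 1.29 from the TSS to +1 kb. Repeats, meaning additional tags at a position and strand already seen, made up 33.0% of the wild-type and 34.5% of the null library, and 25.5% of the tags of either library within 1 kb of these TSSs. With 1 tag kept per position and strand the shape was the same, at 1.95 and 1.43 tags in the bin starting at the TSS.

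**Figure D1:**
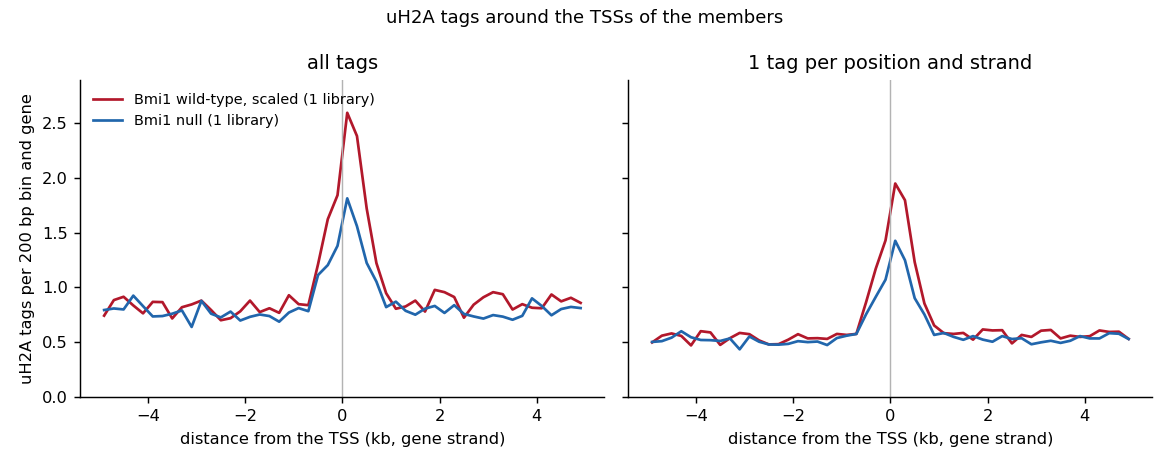
Average uH2A tags per 200 bp bin and gene from -5 to +5 kb of the TSS of the 562 promoters, for the wild-type library (red, scaled by the library totals) and the null library (blue), with all tags on the left and 1 tag per position and strand on the right. Both lines peak in the bin starting at the TSS, at 2.60 and 1.81 tags with all tags.

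When null tags were subtracted from scaled wild-type tags, the wild-type excess was narrow and lay mostly just inside the gene. It was 0.783 ± 0.121 tags in the bin starting at the TSS and 0.825 ± 0.119 in the bin after it (s.e.m. across 562 genes), and averaged 0.348 ± 0.0386 tags per bin within 1 kb. All 5 bins from -0.4 to +0.6 kb exceeded 0.210 tags, the highest value among the 20 bins beyond 3 kb, and no other bin did. Within 1 kb, 6531 wild-type and 6613 null tags gave a pooled ratio of 1.30 (95% Clopper-Pearson interval 1.25 to 1.34), and in the bin starting at the TSS 1113 and 1020 tags gave 1.43 (1.31 to 1.56). The ratio was 1.20 (1.14 to 1.27) from -1 kb to the TSS and 1.37 (1.31 to 1.44) from the TSS to +1 kb. These intervals cover counting error only, since PCR copies cannot be told from separate molecules when reads carry no molecular identifier, and the s.e.m. describes the spread over genes and not over replicates. Farther into the gene, from +0.6 to +2.0 kb, the excess was 0.0744 ± 0.0421 tags per bin, near the 0.0669 ± 0.0214 tags found beyond 3 kb. Both small excesses turned negative, to -0.0257 and -0.0313, when wild-type tags were scaled by the totals of the surrounding 1 Mb in place of the whole library, which also took the excess within 1 kb to 0.214.

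The same promoters were next set beside the lowest-expressed genes with H3K4me3 only and beside genes with H3K27me3 only, to see where their profile stood apart. The excess in the bin starting at the TSS was similar in the 3 groups, at 0.783 ± 0.121 tags for the members, 0.850 ± 0.113 for the 748 lowest-expressed genes and 0.909 ± 0.108 for the 636 H3K27me3-only genes. As a ratio the groups were farther apart in this bin, at 1.43 (1.31 to 1.56), 1.51 (1.40 to 1.63) and 1.73 (1.57 to 1.90), with levels of 2.16 scaled wild-type and 1.25 null tags in the H3K27me3-only genes against 2.60 and 1.81 in the members. Away from the TSS the members lay under the H3K27me3-only genes. From +0.6 to +2.0 kb the excess was 0.496 ± 0.0395 tags per bin in H3K27me3-only genes, which put the members at a difference of -0.422 (-0.535 to -0.309), and within 1 kb the difference was -0.242 (-0.342 to -0.142). Both differences were smaller with 1 tag per position and strand, at -0.239 (-0.305 to -0.173) and -0.126 (-0.189 to -0.0634), and with scaling within 1 Mb the one within 1 kb was -0.157. These ranges are 95% normal intervals from the spread across genes. Beyond 3 kb the H3K27me3-only genes still held an excess of 0.273 ± 0.0249 tags per bin. The lowest-expressed genes with H3K4me3 only were closer to the members, with a difference of -0.0511 (-0.150 to 0.0473) within 1 kb and of -0.0926 (-0.196 to 0.0108) from +0.6 to +2.0 kb. Whether these ranges included 0 depended on the processing. The second did when repeats were removed (-0.0422, -0.0997 to 0.0153) and did not with scaling within 1 Mb (-0.109, -0.199 to -0.0188). It did not without 1600014C10Rik either (-0.113, -0.208 to -0.0168), which took the members' own excess there to 0.0544 tags per bin, but this promoter has the largest wild-type excess and was left out of the members alone, so the difference had to become more negative. By the same construction, leaving out the 6 members with the largest absolute difference took the difference within 1 kb to -0.0908, with a range that ended just under 0.

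**Figure D2:**
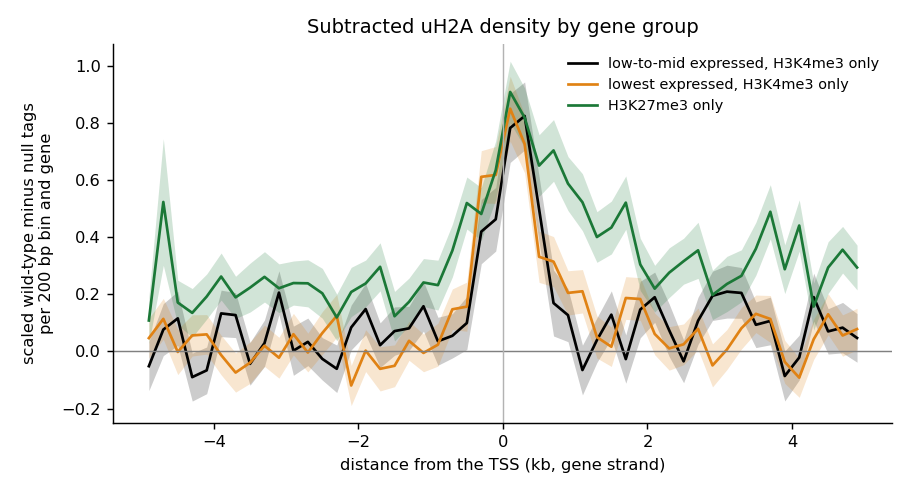
Scaled wild-type minus null tags per 200 bp bin and gene against the distance from the TSS, with s.e.m. across genes as bands, for the 562 low-to-mid expressed genes with H3K4me3 only (black), the 748 lowest-expressed ones (orange) and 636 genes with H3K27me3 only (green). The 3 lines of subtracted tags are near each other in the bin starting at the TSS, at 0.783, 0.850 and 0.909, where the ratios are 1.43, 1.51 and 1.73, and the green line stays above the others from +0.6 to +2.0 kb.

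Counts at a single promoter were low. Wild-type counts within 1 kb ranged from 0 to 121 with a median of 11, and null counts from 0 to 58 with a median of 11. The scaled wild-type count was above the null count at 358 members (63.7%), against 68.7% of all 1999 genes. The 95% Clopper-Pearson interval of the ratio lay above 1 at 77 members (13.7%), where 16.7% of all 1999 genes did so, and below 1 at 14 members (2.49%), where 1.8% of all genes did so. With scaling within 1 Mb these counts were 63 and 21, for which no share over all genes was computed. With 1 tag per position and strand they were 30 and 4, against 7.65% and 0.45% of all genes, and 27 of the 30 were among the 77. From +0.6 to +2.0 kb, 39 members lay above 1 and 21 below, against 10.7% and 3.1% of all genes. All 1999 genes include the members and the H3K27me3-only genes. Within 1 kb and with all tags, 20.4% of the 636 H3K27me3-only genes lay above 1. Of the 748 lowest-expressed genes with H3K4me3 only, 16.0% did so. Wild-type and null counts within 1 kb moved together only loosely over the 562 genes, with a Spearman correlation of 0.291, or 0.366 with 1 tag per position and strand. The points of this correlation share the 2 libraries and the mappability of each promoter.

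**Figure D3:**
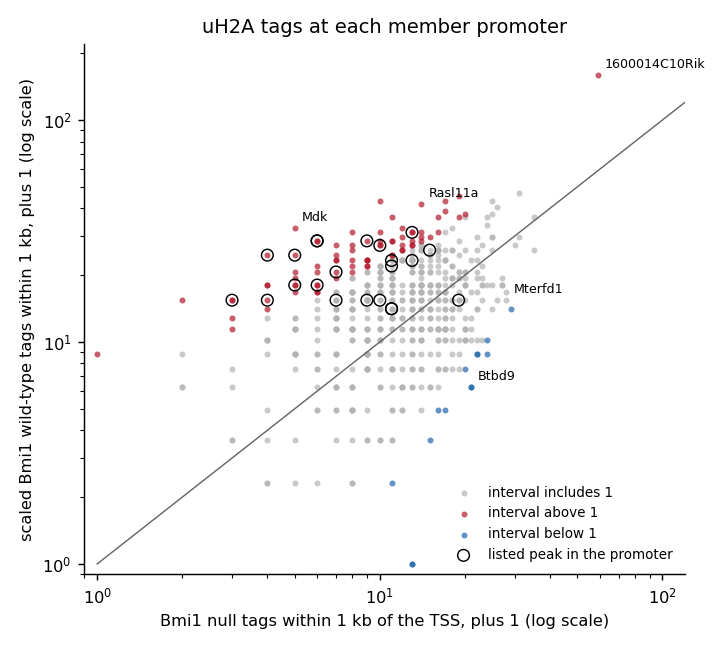
Each point is 1 of the 562 promoters, with null tags within 1 kb of the TSS on the horizontal axis and scaled wild-type tags on the vertical axis, both plus 1 and on log scales. Red points have a ratio interval above 1 (77 promoters), blue points below 1 (14), and rings mark the 22 promoters with a listed peak. The line marks equal values.

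The 5 members with the largest wild-type excess, ranked with 1 tag per position and strand, were 1600014C10Rik, Rasl11a, Anks3, Insr and Mdk. At 1600014C10Rik, whose TSS lies at chr7:37892304 (mm8), 121 wild-type and 58 null tags gave a ratio of 2.74 (1.98 to 3.81), and 75 and 43 positions and strands gave 2.24 (1.52 to 3.33). This promoter was unusual in both libraries and in its surroundings, with 81 wild-type and 77 null tags beyond 3 kb where the members' medians were 11 and 14, and it alone held 5.16% of the summed wild-type excess within 1 kb of all members. Whether repeated sequence or copy number raises the counts at this locus was not tested. Rasl11a, which encodes a Ras-like GTPase, had 31 wild-type and 13 null tags (3.13, 1.59 to 6.51). Mdk, the gene of the growth factor midkine, had 24 and 4 tags and the highest ratio of the 5, 7.87 (2.70 to 31.2), with no listed peak. Anks3 and Insr, the insulin receptor gene, each had 21 and 5 tags (5.51, 2.02 to 18.7). At Insr the excess reached into the gene, with 24 wild-type against 2 null tags from +0.6 to +2.0 kb. The same was seen at 1600014C10Rik (90 and 39 tags) and Rasl11a (10 and 2). The intervals of Anks3 (8 and 8) and Mdk (4 and 3) included 1 there. All 5 intervals lay above 1 with all tags and with 1 tag per position and strand, which follows in part from the choice of genes by these counts.

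At the other end of the same ranking stood Mterfd1, Btbd9, Ube2j2, Sf1 and Dnase2a. Intervals below 1 among them likewise follow in part from the choice by these counts. Btbd9 had 4 wild-type and 20 null tags, a ratio of 0.262 (0.0652 to 0.783). Sf1, whose protein binds the branch point of introns, had 5 and 19 tags (0.345, 0.101 to 0.956). Both stayed below 1 with 1 tag per position and strand, at 0.240 (0.0449 to 0.840) and 0.275 (0.0506 to 0.985). Mterfd1, a regulator of mitochondrial transcription, had 11 and 27 tags (0.534, 0.239 to 1.11), and its interval fell below 1 only when repeats were removed (0.385, 0.126 to 0.993). In the 1 Mb around Mterfd1 the scaled wild-type library held 0.801 times the null tags, whereas around the other 4 the ratio was above 1, from 1.17 at Dnase2a to 1.40 at Ube2j2. The intervals of Ube2j2, an E2 enzyme of the endoplasmic reticulum with 12 and 27 tags, and of the lysosomal nuclease gene Dnase2a, with 7 and 18 tags, included 1.

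Peaks in the deposited list were next assigned to the members. A peak overlapped the 2 kb promoter at 22 of 562 members (3.91%), close to the 4.15% of all 1999 genes, and 10 of these peaks covered the TSS. The peaks held 9 to 30 wild-type tags, with a median of 13.5, at 4 to 18 distinct positions and strands, and 0 to 7 null tags. Since the authors called peaks from the contrast of these same libraries, the counts in them describe the selection and give no independent measure of the difference. By the number of distinct wild-type positions, the strongest was at Anks3, at chr16:4878787-4880099 (mm8), with 21 wild-type and 2 null tags at 18 positions. Dhx38, a splicing helicase, followed with 22 and 4 tags at 15 positions (chr8:112454006-112456136), and Xkr8, a scramblase of the plasma membrane, with 30 and 7 tags at 15 positions (chr4:132002877-132004741). Npal3 held 23 and 6 tags at 14 positions (chr4:134765662-134768312) and B3gntl1 18 and 3 tags at 13 positions (chr11:121488778-121490044). These 5 peaks all covered the TSS.

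Some peaks lay wholly downstream of the TSS, and those of Fzd4, Thrap3, Nfkbib, Daam2 and Nelf lay wholly upstream. Over all 22 peaks, 12 midpoints were downstream and 10 upstream. At Azi1, which encodes a protein of centriolar satellites, the peak ran from 675 to 2075 bp downstream with 18 wild-type and 3 null tags at 12 positions (chr11:119900842-119902242). At Insr it ran from 106 to 1044 bp downstream with 13 and 1 tags at 11 positions (chr8:3278573-3279511), and at Plxna1, a semaphorin receptor gene, from 376 to 1189 bp downstream with 13 and 2 tags at 9 positions (chr6:89327048-89327861). The peaks of 4 further genes covered the TSS. Trp53inp2, with a role in autophagy, had 20 and 4 tags at 11 positions (chr2:155072713-155074523), and Ccdc28a 14 and 3 at 10 positions (chr10:17924027-17924809). Nxf1, the main exporter of mRNA, had 15 and 2 tags at 9 positions (chr19:8823694-8824353), and Shprh, a ubiquitin ligase of the DNA damage response, 13 and 3 at 9 positions (chr10:10839181-10840112). The other 10 promoter peaks, at Fancm, B2m, Fzd4, Nap1l5, Thrap3, Nfkbib, Vps13c, Daam2, Nelf and Capn5, rested on 4 to 8 distinct positions. Among these, the peak of Fancm held 11 wild-type and 2 null tags and that of B2m 10 and 2. Of the 22 members with a peak, 12 had a ratio interval above 1 over the whole promoter and 4 with 1 tag per position and strand. The shares of all members were 13.7% and 5.34%, and those of all 1999 genes 16.7% and 7.65%. As peaks were called from the same libraries, more intervals above 1 among them follow from that choice.

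Members were then grouped by function, with genes allowed in more than 1 list. Among lists of more than 3 genes and with all tags, the pooled ratio was highest in chromatin regulators, transcription factors and receptors or ligands, and lowest in the ubiquitin and Nedd8 pathway, in ribosome, proteasome and energy genes, in mitosis genes and in DNA repair genes. With 1 tag per position and strand the upper lists drew together, at 1.41 in transcription factors, 1.37 in receptors or ligands, 1.34 in chromatin regulators, 1.31 in cilium and centrosome genes and 1.30 in RNA processing, against 1.27 over all members. In 25 genes of chromatin regulators, 286 wild-type and 243 null tags within 1 kb gave a pooled ratio of 1.54 (1.30 to 1.84), the scaled wild-type count was above null at 19, and the median difference was 5.74 scaled tags, against 2.87 over all 562 members and 3.87 over all 1999 genes. With 1 tag per position and strand the median was 2.41, the same as the 2.41 of all 1999 genes, and the ratio 1.34 (1.10 to 1.63). The interval of a single promoter lay above 1 at 3 of the 25, a share under the 13.7% of all members and the 16.7% of all genes, among them Smarca2, an ATPase of SWI/SNF remodellers, with 21 and 10 tags, and Suv420h1, a methyltransferase of histone H4. Phf8, a histone demethylase gene, was among the lowest of this list with 5 and 8 tags. In 28 transcription factor genes the pooled ratio was 1.46 (1.26 to 1.69), the median difference 4.89 tags, and 5 of the 28 were above 1, a share near that of all genes. Maf had 24 and 11 tags and Smad6, an inhibitor of BMP signalling, 23 and 15, while the cell cycle repressor gene E2f8 had 7 and 15. In 30 receptor or ligand genes the ratio was 1.43 (1.24 to 1.65) and the median difference 3.71 tags. Of the 30, 6 were above 1, again near the share of all genes, including Insr, Mdk and the TGF-beta receptor gene Tgfbr1, and Il13ra1 was below, with 1 wild-type and 10 null tags (0.131, 0.00302 to 0.922).

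In DNA repair genes, 20 members, 184 wild-type and 218 null tags gave 1.11 (0.905 to 1.35) and a median difference of 0.739 scaled tags. Of the 20, 1 was above 1, against 13.7% of all members and 16.7% of all genes: Shprh, with 13 and 5 tags within 1 kb. In the same list, Rfc5, a subunit of the clamp loader, had 11 and 6, whereas Xrcc3, of homologous recombination, had 22 and 30 and the helicase gene Pif1 8 and 17. The 17 genes of chromosomes and mitosis pooled to 1.06 (0.861 to 1.31) with a median difference of -0.261, which was 0.976 with 1 tag per position and strand. This list was mixed, with Esco2, a cohesin acetyltransferase (13 and 4 tags), Gas2l3 (16 and 7) and Spag5 above 1, and the condensin gene Ncapd3 below it with 3 and 16 tags (0.246, 0.0459 to 0.859). Ube2s, the E2 enzyme of the anaphase-promoting complex, had 7 and 21. The 17 genes of ribosomes, proteasomes and energy metabolism gave 1.05 (0.853 to 1.30), although their median difference with 1 tag per position and strand, 2.98, was above the 2.11 of all members, with Rps18 (23 and 12 tags), the proteasome lid gene Psmd14 (12 and 5) and Rpl31 above 1 and the cytochrome oxidase gene Cox5b below it with 4 and 20 tags. Psmb2, of the proteasome core, had 8 and 15. In 23 genes of the ubiquitin and Nedd8 pathway, 207 and 269 tags gave 1.01 (0.838 to 1.21), the lowest of the 13 lists. Klhl23, with 13 and 3 tags, and Shprh were above 1 and Klhl20 below, while Senp8, a Nedd8 protease, had 15 and 9.

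Of the remaining lists, those of RNA processing, small GTPases and cilia were near the 1.30 of all members. The ratio was 1.30 (1.08 to 1.56) in 22 genes of RNA processing, where Pabpc1, a poly(A)-binding protein, had 20 and 9 tags and Dhx38 18 and 4, and where Sart1, of the spliceosome, was below 1 with 6 and 23 tags, as was Sf1. It was 1.30 (1.10 to 1.54) in 23 small GTPases and their regulators, with Rasl11a at the top, then Arfgap3 (27 and 15 tags), and with Rgl1 (5 and 15) and Rab36 (4 and 13) at the bottom. In 14 genes of cilia and centrosomes it was 1.32 (1.03 to 1.71). There Ahi1, of the ciliary transition zone, had 9 and 2 tags and Nphp4 17 and 12, against 7 and 8 at Tulp3 and 2 and 8 at Arl13b. The 3 smallest lists hold 3 genes each, and their pooled ratios had wide intervals, 1.88 (1.21 to 2.94) in circadian, 1.75 (0.958 to 3.24) in imprinted and 1.41 (0.805 to 2.47) in histone genes. Per2, a core repressor of the circadian clock, had 27 and 10 tags (3.54, 1.66 to 8.20), with Dbp at 17 and 16 and Per3 at 9 and 11. Of the imprinted genes, Nap1l5 had 11 and 2 tags, Mkrn3 8 and 7 and Peg10 9 and 12. Of the histone genes, H3f3a, which encodes the variant H3.3, had 17 and 12, Hist1h4h 8 and 4 and Hist1h4j 4 and 11. With 1 tag per position and strand the intervals of small GTPases (0.991 to 1.47), of cilium and centrosome genes (0.978 to 1.75) and of circadian genes (0.978 to 2.80) included 1. With scaling within 1 Mb, the pooled ratios of chromosome and mitosis genes and of the ubiquitin and Nedd8 pathway went to 0.976 and 0.970, and that of all members to 1.18 (1.14 to 1.22). The intervals of RNA processing genes (0.954 to 1.38), of cilium and centrosome genes (0.922 to 1.53) and of circadian genes (0.932 to 2.26) then included 1, and that of imprinted genes (1.06 to 3.57) no longer did.

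**Figure D4:**
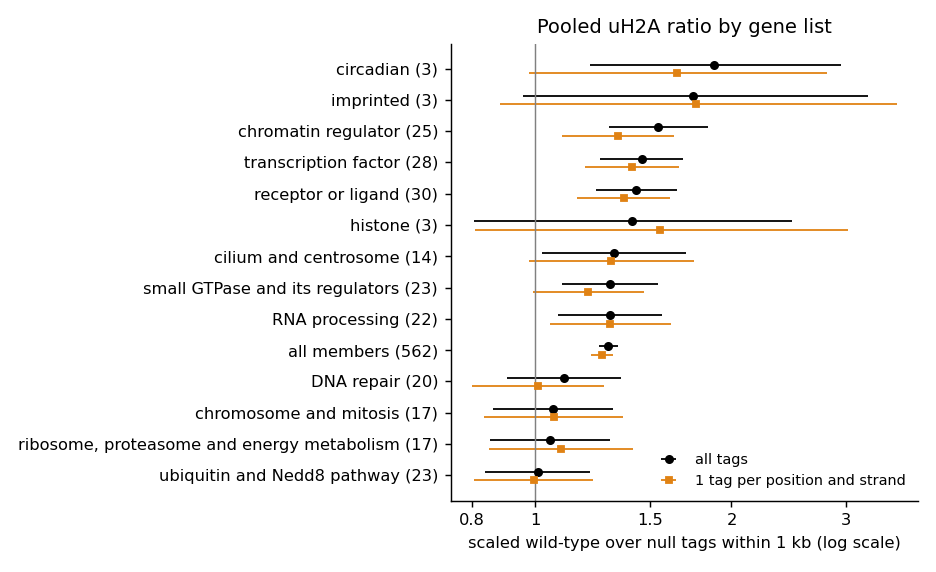
Pooled ratio of scaled wild-type to null tags within 1 kb of the TSS for each gene list and for all 562 members, on a log scale, with 95% Clopper-Pearson intervals and the number of genes in brackets, for all tags (circles) and 1 tag per position and strand (squares). The values with all tags run from 1.01 in the ubiquitin and Nedd8 pathway to 1.88 in the 3 circadian genes.

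A few members encode proteins that work in or beside histone ubiquitylation. Yaf2 belongs to variant PRC1 and Mga to a variant that binds E-boxes, Usp7 is a deubiquitinase found with PRC1, and Rnf20 is a ligase for histone H2B. None of their promoters was set apart from equal levels. Yaf2 had 8 wild-type and 19 null tags (0.552, 0.209 to 1.32), Mga 12 and 10 (1.57, 0.623 to 4.07), Usp7 13 and 9 (1.89, 0.749 to 5.02) and Rnf20 13 and 14 (1.22, 0.527 to 2.79). Yaf2 thus leaned to the null library and Mga and Usp7 to the wild-type library within wide intervals.

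To describe what the members share in sequence, 456 of the 562 (81.1%) had a RefSeq window on the same chromosome and strand, the most downstream one where a gene has several. They held a median of 23 CpG in 300 bases (quartiles 16 and 29), against 7 (3 and 20) in all 32851 windows of the table, and a median GC content of 62.3% against 52.7%. The wild-type excess was larger where CpG were more numerous. When the 456 members were split into tertiles of 152 by CpG number, the pooled ratio within 1 kb was 1.14 (1.07 to 1.23) at 0 to 18 CpG, 1.29 (1.20 to 1.37) at 19 to 27, and 1.39 (1.30 to 1.48) at 27 to 63, with ties at 27 split by table order. Over the 2 kb promoter the wild-type library carried this order, with 1.35 ± 0.0646, 1.56 ± 0.115 and 1.65 ± 0.0648 scaled tags per bin, and the null library was level, with 1.18 ± 0.0454, 1.21 ± 0.0597 and 1.19 ± 0.0436. The order held with 1 tag per position and strand (1.16, 1.27 and 1.32), where the intervals of the poorest (1.07 to 1.26) and richest tertile (1.22 to 1.42) overlapped, and with scaling within 1 Mb (1.03, 1.17 and 1.26), although the interval of the CpG-poorest tertile then included 1 (0.961 to 1.10). Without 1600014C10Rik the middle tertile stood at 1.24. In the bin starting at the TSS the ratios were 1.36, 1.46 and 1.59, but there the wild-type levels of 2.48, 2.88 and 2.60 had no such order and the null levels were 1.82, 1.97 and 1.63. The RefSeq start could not be compared with the mm8 start around which tags were counted, so a window may belong to another start of the gene, and that of Rnf20, for example, held 1 CpG and 42% GC. Beyond 3 kb the order was not seen, with ratios of 1.14, 1.17 and 1.03. Over single genes the relation was weak, with a Spearman correlation of CpG number with wild-type tags of 0.177 and with null tags of 0.00872 (456 genes that share the 2 libraries).

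Short motifs were searched on both strands of the same windows, each counted by itself even where letters overlap. The Sp1 motif GGGCGG was in 316 of 456 members (69.3%) and in 35.7% of all windows, the ETS motif CCGGAAG in 16.4% and 8.86%, the NRF1 core GCATGCGC in 5.70% and 2.71%, and the CRE TGACGTCA in 3.29% and 1.79%. The CCAAT box CCAAT (42.1% and 37.4%), the E-box CACGTG (10.1% and 7.15%) and the YY1 motif AAGATGGCG (1.54% and 1.40%) differed less, and TATAAA was rarer in the members (6.36% and 13.6%). Members with the Sp1 motif had a pooled ratio of 1.32 (1.26 to 1.38), or 1.29 (1.24 to 1.35) without 1600014C10Rik, and the 140 without it 1.17 (1.09 to 1.26). As the Sp1, ETS, NRF1, CRE, E-box and YY1 motifs each contain a CpG, their presence and CpG number are not separate. The shares of members and of all windows were not adjusted for CpG number. For Sp1 and for each of the other 7 motifs the intervals with and without a match overlapped, for Sp1 only at their ends, and the difference itself was not tested. A match describes letters in a window and not a bound site.

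The members were also divided by the study's finer expression groups and fell into 2, with 360 genes in the lower and 202 in the higher part of their range. As the supplied genes end at an expression value of 97, the higher group may be incomplete. The wild-type excess at the TSS was larger in the lower part. In the bin starting at the TSS the lower part had 2.65 ± 0.144 scaled wild-type and 1.63 ± 0.0902 null tags, a ratio of 1.62 (1.45 to 1.81), and the higher part 2.51 ± 0.182 and 2.14 ± 0.152 tags, a ratio of 1.17 (1.02 to 1.35). The wild-type levels were thus alike and the null levels apart. Within 1 kb the ratios were 1.36 (1.30 to 1.42) and 1.19 (1.13 to 1.26), and beyond 3 kb they were 1.09 and 1.08. With 1 tag per position and strand the ratios in the bin starting at the TSS were 1.51 (1.33 to 1.71) and 1.17 (0.999 to 1.37), and with scaling within 1 Mb 1.49 (1.33 to 1.66) and 1.09 (0.946 to 1.25). The median CpG number was 23 in both parts. The lowest-expressed genes with H3K4me3 only, whose expression lies under both parts, did not extend this order with all tags. Their ratio was 1.51 (1.40 to 1.63) in the bin starting at the TSS and 1.35 (1.31 to 1.39) within 1 kb. The share of single promoters with an interval above 1 within 1 kb differed little between the 2 parts. It was 51 of 360 (14.2%) and 26 of 202 (12.9%), against 16.7% of all 1999 genes.

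**Figure D5:**
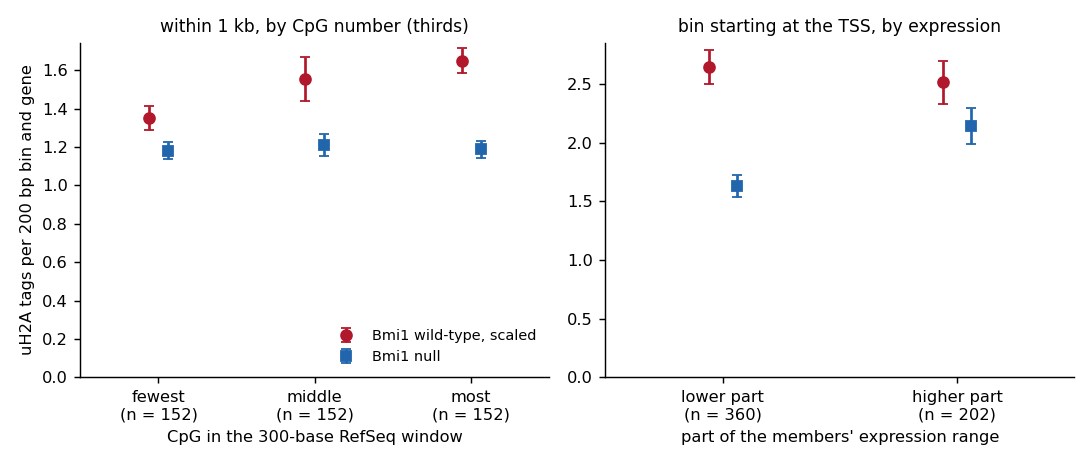
Left, tags per 200 bp bin within 1 kb of the TSS in tertiles of 152 members by CpG number; right, tags in the bin starting at the TSS in 360 members of the lower and 202 of the higher part of the expression range. Red circles are the scaled wild-type library and blue squares the null library, with s.e.m. across genes; the red points on the left go from 1.35 to 1.65 while the blue ones stay near 1.19, and on the right the blue ones differ, at 1.63 and 2.14.

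Many CpG-rich promoters serve a pair of genes that point away from each other. In the RefSeq table, 101 of the 456 matched members (22.1%) had a start of another gene on the opposite strand within 1 kb upstream, at a median distance of 144 bp. Examples are Rad51c with Tex14, Mre11a with Ankrd49, Fzd4 with Tmem135 and Pip5k3 with Idh1. In some pairs, such as Cdc27 and Myl4, both genes are members, so tags that their promoters share enter the pooled values for each gene. From -1 kb to the TSS, over the body of the partner, these promoters had 1.47 ± 0.119 scaled wild-type and 1.17 ± 0.0849 null tags per bin, a ratio of 1.25 (1.12 to 1.41), and the other 355 had 1.21 ± 0.0552 and 1.06 ± 0.0398, a ratio of 1.14 (1.07 to 1.22). From the TSS to +1 kb the ratios were 1.33 (1.19 to 1.48) and 1.37 (1.29 to 1.45), but 1600014C10Rik, whose partner starts 5 bp away, weighed on the first, which was 1.19 (1.06 to 1.33) without it. The intervals of both groups overlapped in each of these regions, and the difference between the groups was not tested. Within 1 kb, 9 of the divergent promoters (8.91%) had an interval above 1, and 48 of the others (13.5%). The shares were 13.7% of all members and 16.7% of all 1999 genes. Without 1600014C10Rik, 8 of 100 divergent promoters lay above 1.

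By chromosome, the pooled ratio within 1 kb ran from 1.07 (0.889 to 1.29) for 22 members on chromosome 13 to 1.59 (1.40 to 1.81) for 34 members on chromosome 7. The value of chromosome 7 fell to 1.41 (1.22 to 1.63) when 1600014C10Rik was left out, and chromosome 18 was then the highest, at 1.51. The 33 members on chromosome X gave 1.14 (0.944 to 1.39), with a median difference of -0.377 scaled tags and with 2 of the 33 promoters above 1 and 1 below, against 13.7% and 2.49% of all members and 16.7% and 1.8% of all genes. The order of the chromosomes as a whole was another one: chromosome X had a scaled ratio of 0.912 and chromosome 7 of 1.12, but chromosomes 10 and 16, with member ratios of 1.46 and 1.39, had 0.919 and 0.892, and chromosome 3, with a member ratio of 1.07, had 1.05. With scaling within 1 Mb the members on chromosome X gave 1.22 (1.01 to 1.48), against 1.18 over all members, and were no longer low. On every chromosome the members' ratio was above that of the chromosome, by 1.03-fold on chromosome 3 to 1.58-fold on chromosome 10. In the 1 Mb around each member the scaled ratio of the libraries ranged from 0.729 to 1.63. Members in tertiles of this regional ratio had pooled promoter ratios of 1.33 (1.25 to 1.42), 1.19 (1.12 to 1.26) and 1.36 (1.29 to 1.44), with no order, and over 562 genes the Spearman correlation between the 2 ratios was 0.0221.

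At finer scale, with steps of 20 bp and each 5′ end moved 73 bp along its strand to approach the middle of a nucleosome, the highest 100 bp were centred at +130 bp in the wild-type and +110 bp in the null library. The level per step was 0.289 scaled wild-type and 0.204 null tags there. The null library reached the same 0.204 tags at +130 bp, so its centre is a tie between both places. From -160 bp to the TSS the level was 0.182 and 0.138 tags, which is 0.835 and 0.870 times the mean of the flanking stretches from -400 to -200 bp and from the TSS to +200 bp. A sharp gap upstream of the TSS was thus not seen in the average of either library. Genes on the plus and minus strand gave centres of +150 and +90 bp in the wild-type and +110 and +130 bp in the null library, so the 20 bp between the libraries lie within the spread between strands. The centres also depended on the move: with ends moved by the fragment length divided by 2 they were at +230 bp in the wild-type and +70 bp in the null library, and at +90 and +150 bp when repeats were also removed, so no order of the libraries is given.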

How the data were processed

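The authors mapped 25 bp tags to mm8 with the Solexa Analysis Pipeline, discarded tags without a unique place, and deposited each remaining tag as 1 line, without normalization and with at most 2 mismatches. They also deposited a peak list, made with their modified form of TIROE, in which the wild-type library was the input and the null library the background. For each peak it holds the authors' count of wild-type tags, a fold that is their ratio of wild-type to null tags relative to the library totals, and an enrichment p-value. Only the place and, for a stricter threshold, the p-value were used. Gene coordinates, mark classes and expression groups came from the study's annotation, of which the first 1999 genes were given.

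Each tag was placed at the lower end of its alignment and counted on the gene strand from -5 to +5 kb of the TSS, and a promoter is the TSS with 1 kb on either side. A peak was assigned to a promoter from an overlap of 1 bp. Wild-type counts were scaled by library totals, by 1.31 with all tags and 1.28 with 1 tag per position and strand. With 1 library per genotype no test was made. Clopper-Pearson intervals of the wild-type share were turned into intervals of the ratio, and "above 1" and "below 1" refer to these. The procedure was tested on simulated counts, with no outcome reported here. The members and lists were chosen with earlier results of these data known. The named genes are those with a listed peak (the 12 strongest in full), the 5 largest and 5 smallest differences with 1 tag per position and strand, up to 4 examples per list, 4 genes of histone ubiquitylation and those at the expression limits; genes outside this rule, such as Suv420h1, Tgfbr1, Spag5, Rpl31, Klhl20 and the divergent examples, were named after their values were seen. Symbols were matched to RefSeq (GRCm38.p6), 480 by symbol and 78 by synonym with 4 unmatched, and 456 had a promoter window. Alternatives were other tag placement, scaling and gene sets. Python 3.11.15 with numpy 2.4.6, scipy 1.17.1, pandas 2.3.3 and matplotlib 3.10.9 was used.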

Additional observations from a re-analysis of the deposited data

How the results depend on the processing

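With 1 tag per position and strand, the excess was 0.233 tags per bin within 1 kb and 0.524 in the bin starting at the TSS, the difference from H3K27me3-only genes within 1 kb -0.126, and 30 members lay above 1 and 4 below. Scaling within 1 Mb, whose median factor over the members was 1.20 and which shifted log2 ratios by a median of -0.13 over the members and -0.14 over all 1999 genes, gave an excess of 0.214 within 1 kb and -0.0257 from +0.6 to +2.0 kb, and a pooled ratio of 1.18 within 1 kb. It turned the excess beyond 3 kb to -0.0313 and the pooled ratio there to 0.960 (main value 1.09), and the cause was not tested. It also moved the CpG-poorest tertile to 1.03, the CpG-richest to 1.26, and promoters without a divergent partner, from -1 kb to the TSS, to 1.03. With negative bins set to 0, which can raise a mean but not lower it, the excess was 0.962 within 1 kb, 1.47 in the bin starting at the TSS, 0.641 from +0.6 to +2.0 kb and 0.609 beyond 3 kb. Promoter peaks numbered 7 at a p-value of 1e-07 or less and 12 with at least 9 distinct wild-type positions, against 22. For listed peaks, the share over all genes was computed only for the main setting. With 5′ ends moved by the fragment length divided by 2, the highest 100 bp were centred at +230 bp in the wild-type and +70 bp in the null library. Leaving out 1600014C10Rik or the 6 members with the largest absolute difference removed genes chosen by the measured value from the members alone. The other 150 of 171 recomputed values stayed within the main value's interval or, for counts, within 1.5 times the main count and, for the fine profile, within the difference between plus- and minus-strand genes; leaving out 1600014C10Rik was among the settings, and it and the values by CpG number, expression, divergent partner and list were added after the data were seen. Depth limits single promoters, with a median of 11 tags in each library.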

Other observations

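Of the 14 members with an interval below 1, Ccdc123 and Txnrd1, a thioredoxin reductase gene, each had 0 wild-type and 12 null tags within 1 kb, and Mocs2, of molybdenum cofactor synthesis, 2 and 14. Timm9, of the mitochondrial import machinery, had 7 and 23. Among 4 members below 1 with 1 tag per position and strand were Ccdc123, Sf1, Mterfd1 and Btbd9. These genes were named after their values were seen.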
